A study of Mus musculus with 16 samples.

Results

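A set of 10 genes of the glucocorticoid system was followed in mouse hippocampus after an inflammatory challenge: the receptor genes Nr3c1 and Nr3c2, and the response genes Fkbp5, Sgk1, Tsc22d3, Zbtb16, Cdkn1a, Map3k6, Plin4 and Sult1a1. They were chosen by symbol, and all 10 of 10 were found among the 19449 genes of the deposited table and passed the filter on low counts, which kept 16269 genes. Total RNA of the hippocampus of 3-month-old mice had been sequenced in 16 libraries, 4 in each of 4 groups: wild type injected with PBS (the vehicle), wild type injected with LPS (lipopolysaccharide, a component of bacterial outer membranes used to provoke inflammation), Tspo knockout injected with PBS, and Tspo knockout injected with LPS. Tspo encodes the translocator protein of the outer mitochondrial membrane, and the comparison asks how its loss alters the hippocampus under inflammation. The labels do not give the strain, the design of the deletion, the dose of LPS or the time from injection to collection. No source says whether the libraries of a group are separate animals. By the Y-linked gene Ddx3y each group held male and female libraries, so none came from a single animal. Beyond that, n counts libraries and the p-values measure the spread between them, part of which may be technical.

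Corticosterone, the main glucocorticoid of rodents, is released by the adrenal gland under stress and in inflammation. In hippocampal neurons it binds the mineralocorticoid receptor, encoded by Nr3c2, with high affinity, and the glucocorticoid receptor, encoded by Nr3c1 and present in most cell types, with lower affinity. Both are held in the cytoplasm by Hsp90 chaperone complexes and, once bound, move to the nucleus, where they bind response elements in DNA, induce one set of genes and repress many inflammatory ones. Several of the induced genes also respond to cytokines, cell stress or p53, so their transcripts are not readouts of the receptors alone.

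Receptor elements are built around the hexamer AGAACA, and the full element is a palindrome of that hexamer and its reverse complement spaced by 3 bases, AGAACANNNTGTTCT. The RefSeq promoter windows (GRCm38.p6; 250 bases before to 50 after a transcription start) matched 8 of the 10 genes with 16 windows. The hexamer, read on both strands, was present in 5 of the 16 windows (31.2%), belonging to Sgk1, Tsc22d3 and Sult1a1, beside 19% of all 32851 windows. The palindrome, which contains the hexamer on each strand, was present in 1 window of Sgk1 and in 3 windows of the whole table (0.00913%). The 3 windows below are shown because they span the range: the Sgk1 window with the palindrome, the Sult1a1 window with separate hexamers, and the Map3k6 window with none. Capitals mark the hexamer on either strand, and each is written 5′ to 3′ on the strand of its gene.
Sgk1 (chr10:21993640-21993939, plus strand): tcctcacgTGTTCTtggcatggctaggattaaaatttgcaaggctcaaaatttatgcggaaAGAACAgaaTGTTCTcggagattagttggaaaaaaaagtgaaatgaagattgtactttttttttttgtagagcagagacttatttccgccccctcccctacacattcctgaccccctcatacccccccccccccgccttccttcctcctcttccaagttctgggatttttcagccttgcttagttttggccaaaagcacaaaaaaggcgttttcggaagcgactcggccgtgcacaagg
Sult1a1 (chr7:126676369-126676668, minus strand): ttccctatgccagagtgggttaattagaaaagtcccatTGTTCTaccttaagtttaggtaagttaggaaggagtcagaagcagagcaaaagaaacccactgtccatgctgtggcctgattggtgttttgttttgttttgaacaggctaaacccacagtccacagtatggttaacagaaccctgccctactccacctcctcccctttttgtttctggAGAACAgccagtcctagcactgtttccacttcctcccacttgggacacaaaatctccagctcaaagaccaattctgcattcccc
Map3k6 (chr4:133240568-133240867, plus strand): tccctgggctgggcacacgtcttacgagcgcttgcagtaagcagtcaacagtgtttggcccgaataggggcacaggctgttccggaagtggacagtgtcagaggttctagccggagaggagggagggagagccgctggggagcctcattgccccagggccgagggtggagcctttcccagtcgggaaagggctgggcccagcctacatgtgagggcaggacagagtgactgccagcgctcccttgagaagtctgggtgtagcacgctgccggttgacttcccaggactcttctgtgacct
The first base of the Sgk1 palindrome lies at position -189 from its start, with a further hexamer at -242. Those of Sult1a1 lie at -212 and -34. A match is a description of the letters and not a measured binding site.

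Total counts ran from 30198619 to 50009041 per library. A check of the labels set 2 libraries apart. The library labelled knockout PBS replicate 1 held Tspo at 2.33 CPM (counts scaled to a common library size), and wild-type PBS libraries 2.06 to 5.17, whereas the other 3 knockout PBS libraries held 0.152, 0.28 and 0.47 and the knockout LPS libraries 0.209 to 0.486. Wild-type LPS replicate 1 held the acute-phase gene Lcn2 at 0.641 CPM, beside 238, 209 and 237 CPM in replicates 2, 3 and 4. The knockout LPS libraries held Lcn2 at 0 to 0.119 CPM, and so showed no rise of it. They were kept, whereas wild-type LPS replicate 1 is set aside in some fits for lacking that rise. Such fits favour larger differences of LPS in wild type and between the genotypes with LPS. The 2 libraries set apart above are called doubtful. For wild-type LPS against PBS, calls among the 10 genes and in each gene list below are given with and without both. Of the cell type marker lists, only the oligodendrocyte, leukocyte and microglial counts are given so. Other comparisons are given so in part. Values of single genes outside the 10 are over all 16 libraries. By the Y-linked gene Ddx3y, 6 libraries were male (wild-type PBS replicate 4, wild-type LPS replicate 1, knockout PBS replicates 2 and 3, knockout LPS replicates 3 and 4) and 10 were female. All 3 wild-type LPS libraries with raised Lcn2 were therefore female and the fourth was male. Codes of unstated meaning in the titles are shared by wild-type PBS replicates 1, 2 and 3, by wild-type PBS replicate 4 and wild-type LPS replicate 1, by wild-type LPS replicates 2, 3 and 4 and knockout PBS replicate 4, and by knockout LPS replicates 1 and 2. Most of the wild-type comparison, and the others entirely, are thus also comparisons of codes, and the code and the group cannot be told apart. Hippocampal subfield markers were present in all libraries (9 of 10 in the table, 409 to 788 CPM summed), as were markers of neighbouring regions (204 to 616 CPM summed).

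**Figure D1:**
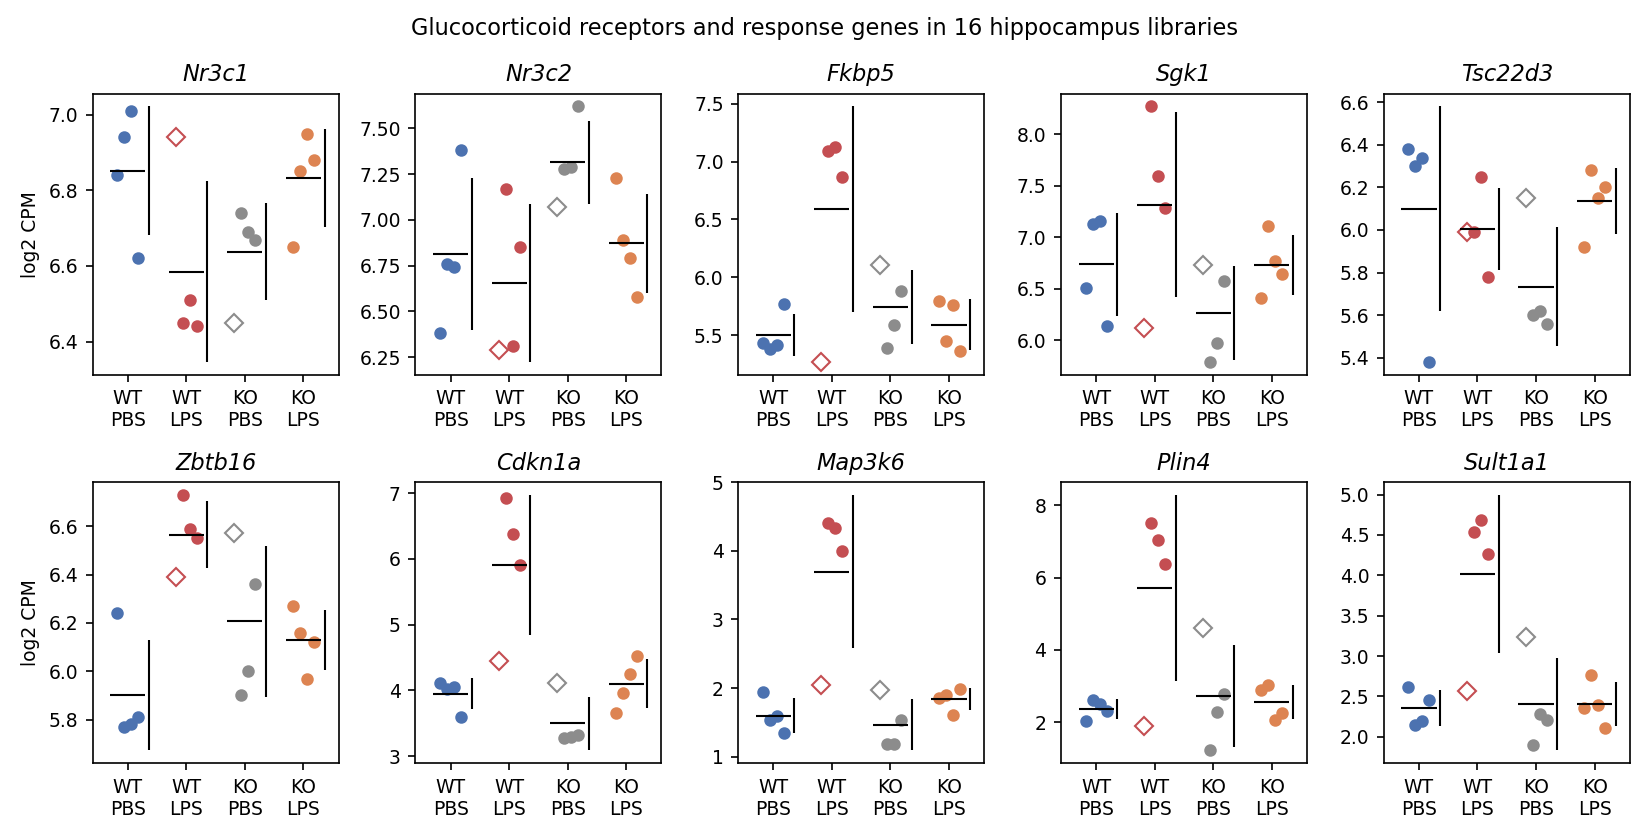
Log2 CPM (vertical axis, a separate scale for each gene) of the 10 genes in each library, by group; horizontal bars are group means, vertical bars the SD (n = 4), and the open diamonds are the doubtful libraries. Wild-type LPS replicates 2, 3 and 4 stand above all wild-type PBS libraries for 7 genes, and the knockout LPS libraries stay near the PBS levels.

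Neither receptor transcript passed edgeR's test in any comparison over all 16 libraries, though limma-voom called Nr3c1 in 4 of the 5. Nr3c1 (chromosome 18, 39410545 to 39519421, minus strand; positions here and below are those of GENCODE M21 on GRCm38) stood at 115, 123, 129 and 98.5 CPM in the wild-type PBS libraries and at 123, 87.1, 91.3 and 86.8 CPM in those given LPS (replicates 1 to 4). Replicates 2, 3 and 4 of the LPS group lay below every PBS library, and replicate 1 lay among them. The log2 fold change of LPS against PBS in wild type was -0.26 ± 0.11 (SE; n = 4 each), which did not pass (adjusted p = 0.17; edgeR quasi-likelihood test, Benjamini-Hochberg over all 16269 genes, threshold 0.05). Without wild-type LPS replicate 1, Nr3c1 fell by 0.4 on the log2 scale (adjusted p = 0.00797), and among female libraries alone it fell by 0.47 (adjusted p = 0.00346). In the knockout its levels were 87.2, 107, 103 and 102 CPM with PBS and 101, 115, 123 and 118 CPM with LPS, a log2 difference of 0.20 ± 0.11 (adjusted p = 0.71). Knockout against wild type gave -0.22 ± 0.11 with PBS (adjusted p = 0.918) and 0.24 ± 0.11 with LPS (adjusted p = 0.182). Limma-voom with sample weights, on the same 16 libraries, gave Nr3c1 at -0.44 for LPS in wild type (adjusted p = 0.00144), -0.30 for knockout against wild type with PBS (adjusted p = 0.0482), 0.32 with LPS (adjusted p = 0.0142) and 0.62 for the interaction (adjusted p = 0.00205). DESeq2 called neither receptor in any comparison.

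Nr3c2 (chromosome 8, 76899442 to 77245012, plus strand) varied more between libraries. Its levels were 83.1, 109, 107 and 166 CPM in the wild-type PBS group, 78.2, 144, 79.2 and 115 CPM in wild type given LPS, 135, 155, 156 and 196 CPM in knockout PBS, and 150, 118, 110 and 95.6 CPM in knockout LPS. All 4 groups overlapped. None of its differences passed: -0.16 ± 0.22 for LPS in wild type (adjusted p = 0.723), -0.44 ± 0.22 for LPS in the knockout (adjusted p = 0.703), 0.46 ± 0.22 for knockout against wild type with PBS (adjusted p = 0.918) and 0.19 ± 0.22 with LPS (adjusted p = 0.627). The hippocampal subfield markers are set beside these levels as a score, the mean log2 CPM relative to wild-type PBS. Knockout PBS replicate 4 (196 CPM) scored 0.62 and wild-type PBS replicate 4 (166 CPM) scored 0.50, whereas wild-type LPS replicate 1 (78.2 CPM) scored -0.46 and wild-type PBS replicate 1 (83.1 CPM) scored -0.36. Wild-type LPS replicate 3, the second lowest at 79.2 CPM, scored -0.07. The highest score, 0.64, belonged to wild-type LPS replicate 2, at 144 CPM. The part of these markers in the Nr3c2 values was not tested. Exons of Nr3c2 share 247 bases with Gm10649 on the opposite strand, and no source used here says whether the counting used strand.

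The balance of the receptors is often expressed as the ratio of Nr3c2 to Nr3c1. Its log2 value in CPM was -0.46, -0.17, -0.26 and 0.76 in wild-type PBS, -0.65, 0.73, -0.21 and 0.41 in wild-type LPS, 0.63, 0.54, 0.60 and 0.94 in knockout PBS, and 0.57, 0.04, -0.16 and -0.30 in knockout LPS. The knockout PBS libraries were high and close together, and each other group spread across 0. The mean difference was 0.11 for LPS in wild type (exact two-sided permutation p = 0.886; 0.943 after Benjamini-Hochberg adjustment over 4 comparisons), -0.64 for LPS in the knockout (p = 0.0571, adjusted 0.228), 0.71 for knockout against wild type with PBS (p = 0.114, adjusted 0.228) and -0.03 with LPS (p = 0.943, adjusted 0.943). With 4 libraries against 4 the smallest p this exact test can give is 0.0286. Per kilobase of exon, the ratio itself ran from 0.757 to 2.28 over the 16 libraries.

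**Figure D2:**
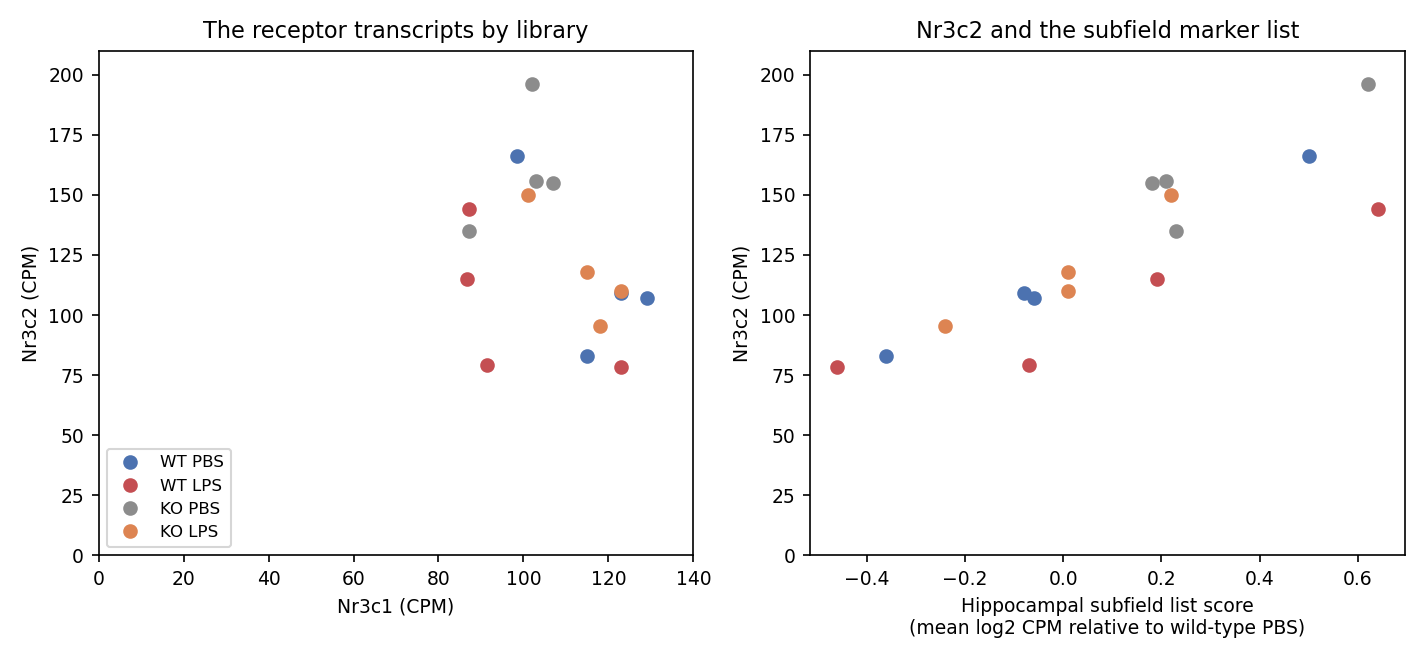
Left, Nr3c2 against Nr3c1 in CPM, 1 point per library, both axes from 0; right, Nr3c2 in CPM against the score of the hippocampal subfield list (mean log2 CPM relative to wild-type PBS). The highest Nr3c2 values, 196 and 166 CPM, belong to libraries with subfield scores of 0.62 and 0.50.

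Among the response genes, 6 rose after LPS in wild type: Fkbp5, Zbtb16, Cdkn1a, Map3k6, Plin4 and Sult1a1. No gene of the 10 fell, and Nr3c1, Nr3c2, Sgk1 and Tsc22d3 did not pass. Over all genes tested 4.72% were called higher and 8.57% in either direction, so 6 of 10 lies above the background, for genes chosen with earlier results of these data known. The median log2 fold change of the 10 was 0.98, beside 0.00 over all genes. The groups did not overlap for Zbtb16, Cdkn1a and Map3k6, which is 3 of 10, where 4.22% of all genes had every LPS library above every PBS library. A fit of only these 8 libraries called none of the 6, with adjusted p from 0.0815 to 0.123, and none of all genes. In bulk tissue, fewer cells of a type and less RNA per cell cannot be told apart.

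**Figure D3:**
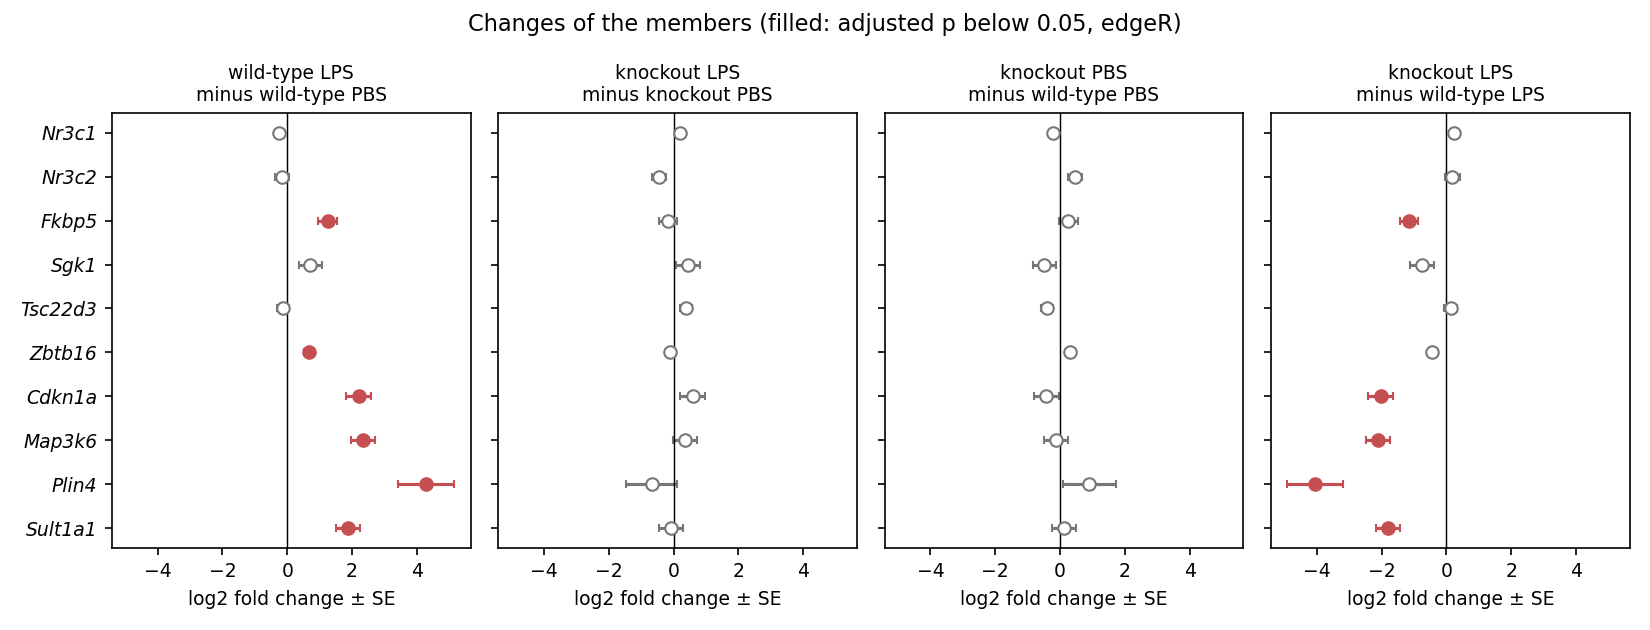
Log2 fold change ± SE (horizontal axis) of the 10 genes in the 4 pairwise comparisons, 4 libraries against 4; filled points passed an adjusted p of 0.05 (edgeR). Points for 6 genes are filled to the right in wild-type LPS against PBS, those of 5 to the left in knockout against wild type with LPS, and none in the other comparisons.

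Fkbp5 (chromosome 17, 28399094 to 28517527, minus strand) encodes the Hsp90 co-chaperone FKBP51, which lowers the hormone affinity of the glucocorticoid receptor and so closes a feedback loop. It stood at 42.9, 41.6, 42.8 and 54.3 CPM in the wild-type PBS libraries and at 38.6, 136, 140 and 117 CPM in those given LPS. Replicates 2, 3 and 4 lay far above the highest PBS value and replicate 1 lay below the lowest. The change was 1.25 ± 0.29 on the log2 scale (adjusted p = 0.0179). It missed the threshold without wild-type PBS replicate 2 (adjusted p = 0.0562) or 3 (0.0552), without wild-type LPS replicate 2 (0.0529) or 3 (0.0624), and with wild-type PBS replicates 2 and 3, the most alike pair of libraries, summed as 1 (0.0534). Without wild-type LPS replicate 1 it was 1.52.

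Zbtb16 (chromosome 9, 48654297 to 48836222, minus strand) encodes the zinc finger repressor PLZF, a steroid-induced gene in many tissues. It stood at 75.4, 54.5, 55.0 and 55.9 CPM in the wild-type PBS libraries and at 83.5, 106, 96.1 and 93.9 CPM in those given LPS. Every LPS library, replicate 1 included, lay above every PBS library. The change of 0.66 ± 0.14 passed (adjusted p = 0.0119), and without wild-type LPS replicate 1 it was 0.71 (adjusted p = 0.0037).

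Cdkn1a (chromosome 17, 29090976 to 29100727, plus strand) encodes the cyclin-dependent kinase inhibitor p21, induced by p53 and by glucocorticoids. It stood at 17.3, 16.2, 16.5 and 12.1 CPM in the wild-type PBS libraries and at 21.6, 121.4, 82.6 and 60.0 CPM in those given LPS. The groups did not overlap, though replicate 1 stood far below the other 3 LPS libraries. The change was 2.20 ± 0.38 (adjusted p = 0.00455), and 2.50 without replicate 1 (adjusted p = 1.23e-05). Of 13 other p53 targets tested, none rose and 1 fell, Phlda3 (-0.49 ± 0.14, adjusted p = 0.0431), where 4.72% of all genes were called higher and 3.85% lower; their median log2 change was 0.06, and Mdm2, the classical p53 target, stood at a log2 change of 0.06 ± 0.09 (adjusted p = 0.749; named after its value was seen). With LPS, 2 of the 13 were lower in knockout than in wild type, Btg2 (-1.18 ± 0.25, adjusted p = 0.00984) and Bbc3 (-0.63 ± 0.16, adjusted p = 0.0203), where 7.28% of all genes were. With both doubtful libraries set aside, 2 of the 13 rose and 1 fell in wild type, where 10.6% and 9.23% of all genes did. In knockout against wild type with LPS 1 was then higher and 4 lower, where 10.8% and 12.9% of all genes were. Exons of Cdkn1a share 273 bases with AC167363.2 on the opposite strand.

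Map3k6 (chromosome 4, 133240818 to 133252929, plus strand) encodes the stress-activated kinase ASK2. It stood at 3.77, 2.83, 2.95 and 2.48 CPM in the wild-type PBS libraries and at 4.06, 21.2, 20.2 and 16 CPM in those given LPS. Again no LPS library fell within the PBS range, but replicate 1 was only just above it. The change was 2.35 ± 0.37 (adjusted p = 0.00343), and 2.67 without replicate 1 (adjusted p = 3.37e-07).

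Plin4 (chromosome 17, 56100591 to 56109803, minus strand) encodes a perilipin that coats lipid droplets, and it showed the largest change of the 10. It stood at 4, 6.09, 5.64 and 4.90 CPM in the wild-type PBS libraries and at 3.66, 183, 131 and 83.8 CPM in those given LPS. Replicates 2, 3 and 4 averaged 133 ± 49.8 CPM (SD, n = 3), 25.7 times the wild-type PBS mean, and replicate 1 lay below all PBS libraries. The log2 change over 4 libraries was 4.29 ± 0.87 (adjusted p = 0.00936), and 4.69 without replicate 1.

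Sult1a1 (chromosome 7, 126672865 to 126676432, minus strand) encodes a phenol sulfotransferase. It stood at 6.03, 4.34, 4.52 and 5.43 CPM in the wild-type PBS libraries and at 5.86, 23.2, 25.8 and 19.3 CPM in those given LPS. Replicate 1 lay inside the PBS range and the other 3 far above it. The change was 1.87 ± 0.37 (adjusted p = 0.00843), and 2.16 without replicate 1 (adjusted p = 3.63e-05). Of its transcript words of 31 bases, 9.35% also occur in other genes, such as Gm6939, beside 0% to 3.24% for the other 9 genes, and 61 exon bases are shared with Sgf29 on the opposite strand, so its count is less certain.

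Sgk1 (chromosome 10, 21882184 to 21999903, plus strand), with the palindrome in 1 of its promoter windows, encodes a kinase that controls ion channels and transporters. It stood at 91.3, 140, 143 and 70.5 CPM in the wild-type PBS libraries and at 69.6, 308, 193 and 156 CPM in those given LPS. The PBS libraries themselves were widely spread, and the change of 0.71 ± 0.36 did not pass (adjusted p = 0.24). Without wild-type LPS replicate 1 it rose by 0.98 (adjusted p = 0.0298); among female libraries alone the change was 0.81 (adjusted p = 0.0647).

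Tsc22d3 (chromosome X, 140539528 to 140600659, minus strand) encodes GILZ, a leucine zipper protein through which glucocorticoids restrain NF-kappaB, and is among the most used receptor targets. It stood at 83.4, 78.7, 81.0 and 41.6 CPM in the wild-type PBS libraries and at 63.4, 63.5, 75.8 and 55.0 CPM in those given LPS. The groups overlapped, and the change of -0.14 ± 0.19 did not pass (adjusted p = 0.697), nor with both doubtful libraries set aside (-0.14, adjusted p = 0.667). Its 95% interval, -0.55 to 0.26, does not reach the fold seen for Fkbp5.

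Wild-type LPS replicate 1 lay above the wild-type PBS range for 3 of the 10 genes (Zbtb16, Cdkn1a, Map3k6), below it for 4 (Nr3c2, Fkbp5, Sgk1, Plin4) and inside it for 3, where 24.4% of all genes lay above and 23.8% below. Replicates 2, 3 and 4 were all above every wild-type PBS library for 7 of the 10, Sgk1 included, and below for Nr3c1, against 14.5% and 12.7% of all genes. With both doubtful libraries set aside, 7 genes rose and 1 fell in wild type, where 10.6% of all genes were called higher and 9.23% lower. Among the 10 female libraries, 6 rose and Nr3c1 fell, where 12.3% of all genes were called higher and 10.8% lower. Male wild-type libraries numbered 1 with PBS and 1 with LPS, so males alone give no replicate check.

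Some cell type markers were called in the same comparison, where over all genes 4.72% were called higher and 3.85% lower. A list with 1 call holds too few genes to be set apart from those shares. In wild-type LPS, 5 of 8 oligodendrocyte markers fell (3410 to 8130 CPM summed, from 6790 to 8960 with PBS), 3 of 4 leukocyte markers tested rose (1.04 to 13.3 CPM summed over 6, from 0.573 to 0.745), and 2 of 6 astrocyte markers rose (1660 to 2750 CPM summed, from 1660 to 1870). Of 6 endothelial markers 2 fell (162 to 208 CPM summed, from 185 to 229), and of 5 microglial markers 1 fell (214 to 308, from 211 to 256). Of 5 pericyte and smooth muscle markers 1 fell (median -0.57), and their sums did not overlap (88.5 to 128 CPM with LPS, 147 to 161 with PBS). Of 7 markers of neighbouring regions tested 1 fell (median -1.21; 204 to 296 CPM summed, from 268 to 559). With both doubtful libraries set aside, 5 of 8 oligodendrocyte markers fell, 3 of 4 leukocyte markers rose and, of 5 microglial markers, 3 rose and 1 fell. In that fit 10.6% of all genes were called higher and 9.23% lower. No marker of these lists was at 0 in every library of a group. The part of these cells in the changes above was not tested.

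In the knockout, LPS against PBS called none of the 10 genes, and none of all genes (0%; 1120 genes had an unadjusted p under 0.05, DESeq2 called 3 and limma-voom 0). Fkbp5 stood at 69.2, 42.0, 48.0 and 58.9 CPM with PBS and 55.5, 43.8, 54.0 and 41.1 CPM with LPS. For Plin4 the values were 24.4, 2.28, 4.81 and 6.78 CPM with PBS and 7.30, 8.04, 4.11 and 4.71 CPM with LPS. Cdkn1a stood at 17.2, 9.59, 9.74 and 9.90 CPM with PBS and 12.6, 15.6, 18.9 and 23.1 CPM with LPS. The LPS levels of Fkbp5 and Plin4 lay within or near those of the PBS libraries of either genotype. Every LPS level of Cdkn1a lay above knockout PBS replicates 2, 3 and 4, and 18.9 and 23.1 CPM lay above all PBS libraries. The LPS levels of Map3k6 and Tsc22d3 also lay above those 3 knockout PBS libraries. The share of all genes with that order was not counted, so it is not read as a response. With replicate 1 included, Cdkn1a, Map3k6 and Tsc22d3 all overlapped between the groups. Over all genes, 3.04% had every knockout LPS library above every knockout PBS library. The log2 changes were -0.17 ± 0.29 for Fkbp5 (adjusted p = 0.889), -0.68 ± 0.80 for Plin4 (adjusted p = 0.837) and 0.59 ± 0.38 for Cdkn1a (adjusted p = 0.715). Map3k6 stood at 3.87, 2.21, 2.21 and 2.85 CPM with PBS, and Sult1a1 at 9.32, 3.67, 4.79 and 4.56 CPM. Sgk1 stood at 106, 55.2, 62.6 and 94.9 CPM with PBS. Replicate 1 was the highest knockout PBS library for each of these genes. The other response genes had log2 changes from -0.10 (Zbtb16) to 0.44 (Sgk1), with adjusted p of 0.703 or more. With both doubtful libraries set aside, still none passed, with Cdkn1a at 0.85 (adjusted p = 0.484) and Tsc22d3 at 0.55 (adjusted p = 0.489). The knockout LPS group as a whole lacked the rise of Lcn2, so these values describe libraries without that response.

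With PBS, knockout against wild type called none of the 10 genes, while 6 of all genes (0.0369%) passed. Zbtb16 stood at 95.0, 59.6, 64.0 and 82.2 CPM in knockout PBS, a difference of 0.32 ± 0.14 (adjusted p = 0.918). Tsc22d3 stood at 70.9, 48.6, 49.2 and 47.0 CPM in knockout PBS. Replicates 2, 3 and 4 lay below wild-type PBS replicates 1, 2 and 3 and above replicate 4. The difference was -0.40 ± 0.19 (adjusted p = 0.918), and -0.56 with both doubtful libraries set aside (adjusted p = 0.602).

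The library labelled knockout PBS replicate 1 was the highest of its group for all 8 response genes and the lowest for both receptors. It was the highest of its group for 26.2% of all genes, for 13 of 30 other glucocorticoid-induced genes and for 0 of 5 inflammation genes. Relative to the mean of the other 3, its level was 5.29 times for Plin4, 2.15 times for Sult1a1, 1.77 times for Cdkn1a, 1.59 times for Map3k6, 1.5 times for Sgk1, 1.47 times for Tsc22d3, 1.39 times for Fkbp5 and 1.38 times for Zbtb16. Nr3c1 was at 0.838 and Nr3c2 at 0.795 of that mean. Its Tspo level also goes against its label, as given above, so directions drawn from the knockout PBS group include a library of doubtful genotype.

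With LPS, 5 genes were lower in the knockout than in wild type: Fkbp5, Cdkn1a, Map3k6, Plin4 and Sult1a1. None was higher. Over all genes 7.28% were called lower, 4.61% higher and 11.9% in either direction. Both this comparison and the one within wild type rest on the 4 wild-type LPS libraries, and they are not independent. Knockout LPS levels were 3.55, 3.68, 2.99 and 3.91 CPM for Map3k6, where every library lay below every wild-type LPS library. They were 5.06, 6.75, 5.18 and 4.26 CPM for Sult1a1, where wild-type LPS replicate 1, at 5.86, lay among them. Wild-type LPS replicate 1 also lay below every knockout LPS library for Fkbp5 and Plin4. In the same comparison 5 of 8 oligodendrocyte markers were higher in the knockout (median 0.67; 6980 to 7650 CPM summed, beside 3410 to 8130 in wild type), as were 2 of 7 neuron markers (6230 to 7430 CPM, beside 5950 to 7170). Of 6 astrocyte markers 2 were lower and 1 higher (1700 to 1790 CPM, beside 1660 to 2750), and 2 of 6 endothelial (144 to 181 CPM, beside 162 to 208) and 2 of 4 leukocyte markers tested (0.316 to 1.85 CPM over 6, beside 1.04 to 13.3) were lower. Of the microglial, pericyte and smooth muscle, and neighbouring-region markers 1 each was higher. Their part in the differences was not tested.

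The log2 differences of knockout against wild type with LPS were -1.15 ± 0.29 for Fkbp5 (adjusted p = 0.0207), -2.03 ± 0.38 for Cdkn1a (adjusted p = 0.00559), -2.12 ± 0.37 for Map3k6 (adjusted p = 0.00397), -4.05 ± 0.86 for Plin4 (adjusted p = 0.00972) and -1.80 ± 0.37 for Sult1a1 (adjusted p = 0.00819).

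Zbtb16 stood at 77.4, 71.5, 62.5 and 69.3 CPM in knockout LPS, below all wild-type LPS libraries, but its difference of -0.44 ± 0.14 just missed the threshold (adjusted p = 0.0558). Zbtb16 and Map3k6, 2 of 10, were the genes whose groups did not overlap, beside 6.98% of all genes in that direction. Sgk1 stood at 85.1, 138, 109 and 99.4 CPM (-0.75 ± 0.36, adjusted p = 0.18) and Tsc22d3 at 60.6, 77.5, 70.8 and 73.3 CPM (0.13 ± 0.19, adjusted p = 0.689). Without wild-type LPS replicate 1, 7 genes were lower, now with Sgk1 (-1.02, adjusted p = 0.0212) and Zbtb16 (-0.49, adjusted p = 0.0273), and Nr3c1 was higher (0.37, adjusted p = 0.0097); in that fit 13.3% of all genes were called lower and 10.9% higher. The differences of the 5 genes were then -1.43 for Fkbp5, -2.33 for Cdkn1a, -2.44 for Map3k6, -4.45 for Plin4 and -2.09 for Sult1a1. That library was left out for its low Lcn2, so the fit favours larger differences. The Fkbp5 call was lost without wild-type LPS replicate 2, 3 or 4 (adjusted p = 0.0614, 0.0687 and 0.0538) or knockout LPS replicate 2 or 4 (0.0557 and 0.0552). A fit of only these 8 libraries called 2 of the 10, Map3k6 and Zbtb16 (-0.44, adjusted p = 0.0455), and left Cdkn1a, Plin4 and Sult1a1 just outside, at adjusted p of 0.0509, 0.0511 and 0.0506.

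The difference between the genotypes in the response to LPS was tested as an interaction. None of the 10 passed, while 187 of all genes did (1.15%), and 3520 genes had an unadjusted p under 0.05. DESeq2 called 5 of the 10, beside 1300 of all genes, and limma-voom 8 of the 10, beside 4029 of all genes. The values nearest the threshold were Plin4 (-4.96 ± 1.17, adjusted p = 0.0514), Map3k6 (-2.02 ± 0.52, adjusted p = 0.061), Zbtb16 (-0.76 ± 0.20, adjusted p = 0.0637), Sult1a1 (-1.94 ± 0.52, adjusted p = 0.0661) and Fkbp5 (-1.41 ± 0.41, adjusted p = 0.0794). Cdkn1a stood at -1.61 ± 0.53 (adjusted p = 0.106) and Nr3c1 at 0.46 ± 0.16 (adjusted p = 0.123). Without wild-type LPS replicate 1, 7 passed (1 higher, 6 lower). Without wild-type PBS replicate 4, 2 passed (Tsc22d3 higher, Plin4 lower), beside 947 of all genes. Without wild-type PBS replicate 1, 1 passed (Zbtb16, lower), beside 176 of all genes. Wild-type LPS replicate 1 was left out for its low Lcn2, while knockout LPS libraries with less of it were kept. That choice favours an interaction. Over all genes the count was 2655 without wild-type LPS replicate 1 (16.1%) and 3 when the doubtful knockout PBS library was left out. By edgeR over all 16 libraries, passing in wild type and not in the knockout is therefore not shown as a difference for any of the 10, whereas DESeq2, on the same libraries, called Fkbp5, Zbtb16, Map3k6, Plin4 and Sult1a1 (adjusted p from 0.00202 to 0.0122). Limma-voom called these 5 and Nr3c1, Tsc22d3 and Cdkn1a.

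Other genes under glucocorticoid control were taken from a list of 30. Of these, 13 rose and none fell after LPS in wild type (median 0.45), and 14 were lower and none higher in knockout than in wild type with LPS (median -0.48). Over all genes 4.72% were called higher in the first comparison and 7.28% lower in the second. Without the doubtful libraries 19 rose and 18 were lower, where 10.6% and 12.9% of all genes were. Tgm2, encoding a transglutaminase, stood at 16.1, 11.7, 8.86 and 14.6 CPM in the wild-type PBS libraries and at 16.5, 49.7, 49.3 and 54.0 CPM in those given LPS (1.72 ± 0.30, adjusted p = 0.00454). The metallothionein Mt1 stood at 140, 118, 116 and 116 CPM and at 118, 491, 450 and 386 CPM (1.56 ± 0.29, adjusted p = 0.00627). In both, replicates 2, 3 and 4 carried the rise, as for the genes above. Mt2 (1 ± 0.23) and Cebpd, a transcription factor gene also driven by cytokines (1.28 ± 0.30), rose as well, with adjusted p of 0.0172 and 0.0179. Angptl4, a lipase inhibitor gene, was lower in knockout LPS than in wild-type LPS (-1.89 ± 0.35, adjusted p = 0.00517), with Tgm2 (-1.91), Mt1 (-1.66) and Cebpd (-1.47). Per1 (0.42 ± 0.15, adjusted p = 0.088) and Klf9 (0.24 ± 0.12, adjusted p = 0.242), frequently used receptor targets named here after their values were seen, did not pass in wild type. In the interaction 1 of the 30 passed, Mt1, with -1.83.

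**Figure D4:**
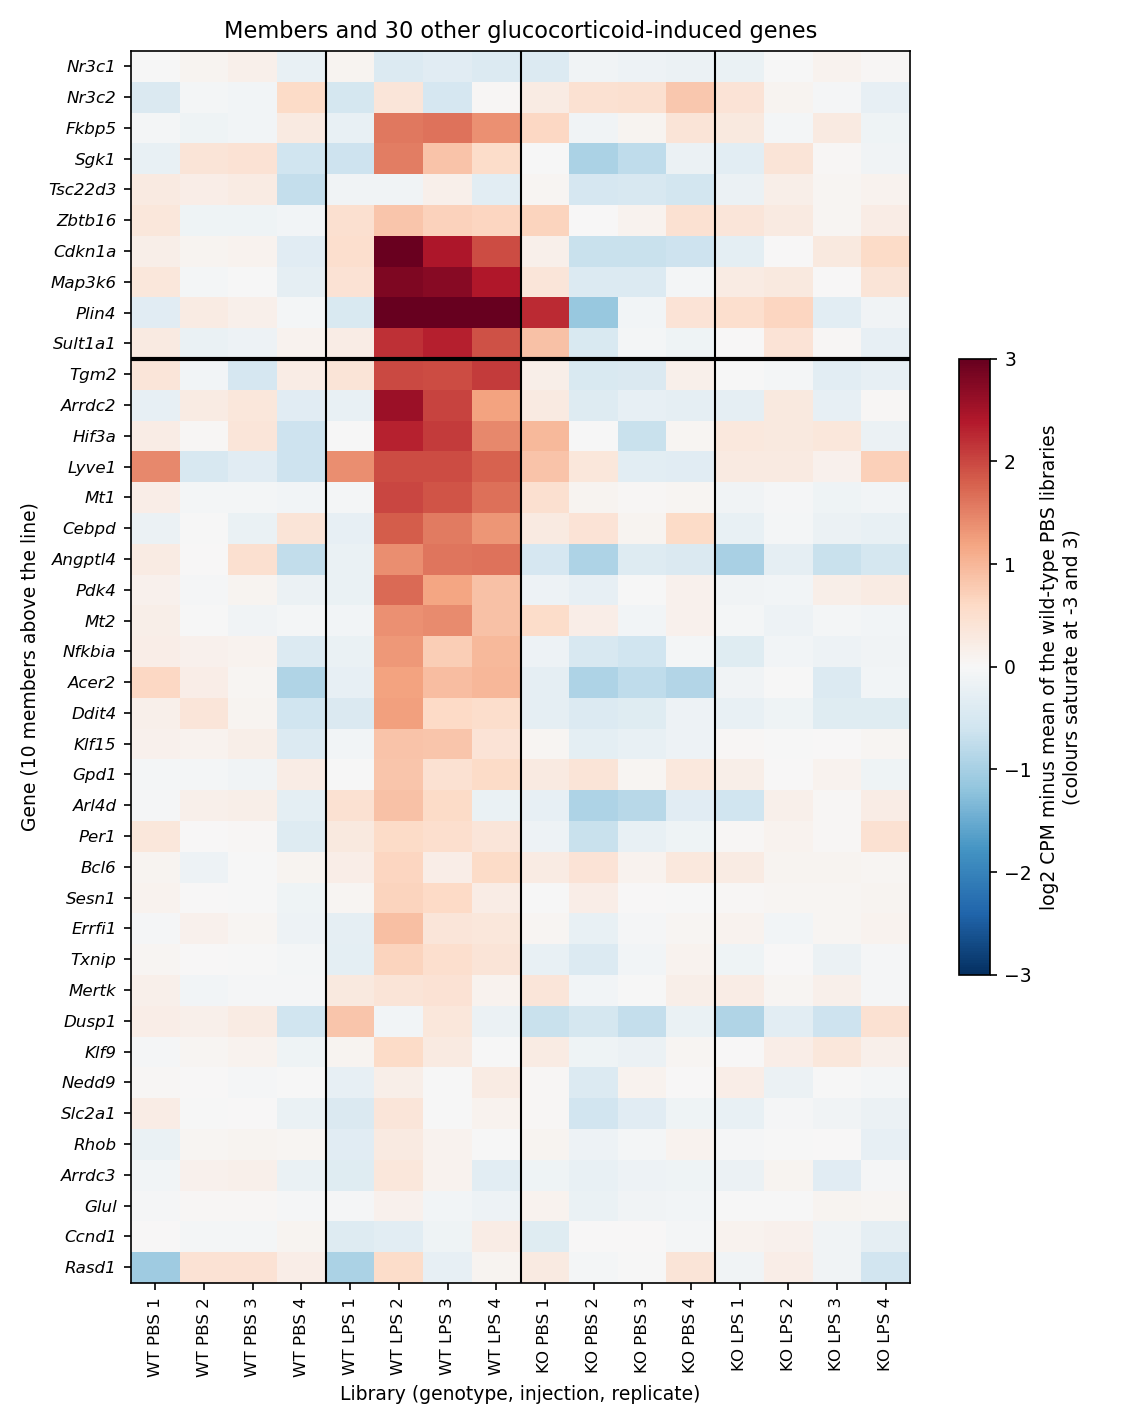
Log2 CPM relative to the mean of the wild-type PBS libraries (colour, saturating at -3 and 3) for the 10 genes, above the line, and 30 other glucocorticoid-induced genes, below it, in order of their change in wild type; columns are the 16 libraries. The warm colours lie in wild-type LPS replicates 2, 3 and 4, with the library labelled knockout PBS replicate 1 warm for Plin4, which is 5.29 times the mean of its group's other libraries.

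Of 20 genes for the chaperones and coregulators that hold and assist the receptors, none rose and 4 fell after LPS in wild type (median -0.10), where 3.85% of all genes were called lower. Without both of the doubtful libraries 8 fell, and 9 were higher in knockout than in wild type with LPS, where 9.23% and 10.8% of all genes were. Hsp90aa1, the inducible Hsp90 isoform, stood at 1160, 1210, 1230 and 1230 CPM in the wild-type PBS libraries and at 1110, 974, 993 and 957 CPM in those given LPS. No LPS library reached the lowest PBS value (-0.26 ± 0.06, adjusted p = 0.0157). Hspa4 (-0.42 ± 0.09, adjusted p = 0.0146), the Hsp70-Hsp90 adaptor Stip1 (-0.39 ± 0.11, adjusted p = 0.0344) and the cyclophilin Ppid (-0.17 ± 0.04, adjusted p = 0.0282) fell too. Fkbp4, the co-chaperone that competes with the Fkbp5 product, stood at 126, 124, 124 and 110 CPM with PBS and 127, 78.8, 87.6 and 92.4 CPM with LPS, and did not pass (-0.33 ± 0.13, adjusted p = 0.12). In knockout against wild type with LPS, 3 of the 20 were higher, beside 4.61% of all genes: Hspa4 (0.41), Hsp90aa1 (0.25) and Ptges3 (0.22).

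Genes that make, clear or transport the hormone and drive its axis numbered 13, of which 11 were tested; 2 rose and 1 fell after LPS in wild type, where 4.72% of all genes were called higher and 3.85% lower. Setting both doubtful libraries aside, 2 rose and 2 fell, where 10.6% of all genes were called higher and 9.23% lower. Abcb1b, encoding a P-glycoprotein that exports steroids, stood at 4.12, 4.34, 4.08 and 3.94 CPM with PBS and 4.37, 7.20, 6.49 and 5.68 CPM with LPS (0.53 ± 0.14, adjusted p = 0.0288). H6pd, which supplies NADPH to the enzyme that regenerates active glucocorticoid, rose by 0.41 ± 0.12 (adjusted p = 0.0489), and Srd5a1, which reduces steroids, fell by 0.46 on the log2 scale (-0.46 ± 0.11, adjusted p = 0.0201). Abcb1b (-0.60) and H6pd (-0.49) were lower in knockout than in wild type with LPS. Hsd11b1, the regenerating enzyme itself, did not pass (0.28 ± 0.17, adjusted p = 0.344; named after its value was seen).

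Among genes of the same families, 21 were tested, and 3 rose and 1 fell after LPS in wild type, where 4.72% of all genes were called higher and 3.85% lower. These counts were 3 and 3 without the doubtful libraries, where 10.6% and 9.23% of all genes were called higher and lower. The Sgk1 relatives moved apart: Sgk3 went from 13.4, 15.9, 15.5 and 18.0 CPM to 12.6, 79.2, 55.9 and 35.9 CPM (1.55 ± 0.36, adjusted p = 0.017), and Sgk2 from 1.31, 2.71, 2.92 and 2.88 CPM to 1.53, 0.620, 0.705 and 0.177 CPM (-1.71 ± 0.41, adjusted p = 0.0208). Plin2, the perilipin found in most cells, rose by 0.75 ± 0.18 (adjusted p = 0.0182), less than Plin4, and Tsc22d4 rose by 0.70 ± 0.19 (adjusted p = 0.0316) beside the -0.14 of Tsc22d3. In knockout against wild type with LPS, Sgk3 (-1.35), Plin2 (-0.80) and Tsc22d4 (-0.79) were lower and Sgk2 (1.46) was higher. Each of these genes had replicate 1 of the LPS group near the PBS levels.

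Of 12 inflammatory genes that glucocorticoids repress, 7 were tested, and 5 rose after LPS in wild type (median 1.98), where 4.72% of all genes were called higher. With both doubtful libraries set aside, 11 were tested. Of these, 10 rose in wild type and 10 were lower in knockout than in wild type with LPS. Over all genes 10.6% were called higher in the first comparison and 12.9% lower in the second. The genes added in that fit did not pass the low-count filter over all 16 libraries. They may have passed it through the wild-type LPS libraries alone, so their calls add no support. The adhesion molecule gene Icam1 stood at 2.29, 2.02, 1.86 and 2.56 CPM with PBS and 3.05, 27.2, 23.9 and 26.3 CPM with LPS (3.20 ± 0.51, adjusted p = 0.00343). Il1b, encoding the cytokine interleukin-1 beta, changed by 1.98 ± 0.42 (adjusted p = 0.0119), and the chemokine genes Cxcl1 by 5.58 ± 1.15 (adjusted p = 0.00979) and Cxcl10 by 2.94 ± 0.71 (adjusted p = 0.0207). In knockout against wild type with LPS 5 of the 7 were lower, where 7.28% of all genes were. Among the 5 were Icam1 (-3.11), Il1b (-2.45), Cxcl10 (-4.09) and Cxcl1 (-4.15). Their levels are low: Cxcl1 held at most 5.79 CPM.

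Compared per kilobase of exon, the 10 genes kept a broad order in wild-type PBS: Sgk1 (22.7 ± 7.34 CPM per kilobase, SD, n = 4), Nr3c2 (18.0 ± 5.47), Tsc22d3 (16.4 ± 4.56), Nr3c1 (15.1 ± 1.73), Zbtb16 (11.4 ± 1.94), Fkbp5 (4.80 ± 0.633), Cdkn1a (4.37 ± 0.662), Sult1a1 (3.37 ± 0.525), Plin4 (0.892 ± 0.157) and Map3k6 (0.654 ± 0.119). Neighbours in this order did not differ beyond their spread from Sgk1 to Nr3c1, nor Fkbp5 from Cdkn1a. In wild-type LPS, Plin4 moved to the fourth place at 17.4 ± 13.2 CPM per kilobase and Cdkn1a to the second at 20.1 ± 11.8, both with a spread that reaches their neighbours. Knockout LPS had Sgk1 first (22.0 ± 4.57) and Map3k6 last (0.767 ± 0.0847).

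The genes most like 9 of the 10 over the 16 libraries, by the root mean square difference of centred log2 CPM, are a description and share the libraries' depth and composition. Cdkn1a was nearest to Map3k6 (0.26), followed by Socs3 and Igtp, and Map3k6 to Pla2g3 (0.20), Cdkn1a and Aspg. Fkbp5 was nearest to Spi1 (0.14), Vav1 and C1qb, and Sult1a1 to Rac2 (0.25), Mt1 and Tgm2. Sgk1 was nearest to Nfkbia (0.29), Ddit4 and Emilin2, Zbtb16 to Stxbp2 (0.17), Slc24a4 and Mertk, and Tsc22d3 to Hlf (0.16), Coq10b and Rcan2. Plin4 was nearest to Serpina3n (0.75), followed by Ctla2a and Irf7. Its own SD over the libraries, 1.89, was the largest of the 10. The measure is not scaled by that spread, so its values are not compared between genes. Nr3c2 was nearest to Drd5 (0.13), Thsd4 and Zbtb20.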

How the data were processed

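The 10 genes, the other gene lists and the rule for naming genes were chosen with earlier results of these data known. The authors deposited 1 table of estimated counts per gene and library, in whole numbers; Salmon 1.9.0, MultiQC 1.13, DESeq and DESeq2 stand in the submitters' processing notes, with no role stated for any. Their genome build and annotation are not given in the sources used here. The table held 19449 genes, of which 120 identifiers (0.106% of counts) had no symbol in GENCODE M21. Groups and replicate numbers came from the labels.

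Genes were kept by filterByExpr (16269 genes, 99.97% of counts), scaled by TMM and fitted with edgeR 4.0.16 (R 4.3.3) with 1 mean per group over all 16 libraries (biological coefficient of variation 0.177). Quasi-likelihood p-values were adjusted by Benjamini-Hochberg over all genes, with a threshold of 0.05. Log2 CPM used a prior count of 2. The receptor ratio was tested by an exact two-sided permutation test. All 10 genes were named, with up to 4 genes of each other list that passed with the smallest p in wild-type LPS against PBS and in knockout against wild type with LPS, the 3 genes most like each (for Nr3c1 not reported here), and Tspo and Lcn2 as checks. Other genes are said to be named after their values were seen.

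Alternatives were RLE scaling, other filters, DESeq2 1.42.0, limma-voom 3.58.1 with sample weights, the replicate number as a block, sex as a covariate (from Ddx3y, as Xist was not used), only the libraries compared, and leaving out libraries. Female libraries alone, list counts with libraries set aside, and wild-type PBS replicates 2 and 3 summed were chosen after seeing the data. That pair differed by a chi-square of 4.03 per gene, above sampling noise but less than any other pair of a group (13.7 to 131), and was kept as 2 libraries. On simulated counts of 16269 genes for the wild-type LPS comparison, edgeR recovered 68 of 97 genes changed by a fold of 2 and 93 of 103 changed by a fold of 4, with 6 false calls. The simulation shifted every wild-type LPS library alike and held no doubtful library, so these rates need not hold for the real libraries.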

Additional observations from a re-analysis of the deposited data

Results flagged for a closer look

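In 7 of the 40 sets of 4 libraries (10 genes in 4 groups), 1 library stood apart from the other 3 by Dixon's criterion at the 95% level. Independent sets would give about 2 by chance. The 40 sets share the same 16 libraries and are not independent. The share of all genes set apart in this way was not counted, so the 7 are not read as particular to these genes. Wild-type LPS replicate 1 stood apart for Nr3c1 (123 CPM, the others 86.8 to 91.3) and for Fkbp5 (38.6 CPM, the others 117 to 140). The library labelled knockout PBS replicate 1 stood apart for Tsc22d3 (70.9 CPM, the others 47.0 to 49.2) and for Cdkn1a (17.2 CPM, the others 9.59 to 9.90). Wild-type PBS replicate 4, a male library in a group whose others were female, stood apart for Fkbp5 (54.3 CPM, the others 41.6 to 42.9) and for Tsc22d3 (41.6 CPM, the others 78.7 to 83.4). Wild-type PBS replicate 1 stood apart for Zbtb16 (75.4 CPM, the others 54.5 to 55.9). That library and wild-type LPS replicate 1 also held the lowest summed choroid plexus markers of their groups, 11.1 and 13.9 CPM.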

How the results depend on the processing

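Of 1340 recomputed log2 changes of the 10 genes (11 alternatives and 16 fits that each left out 1 library), 1243 kept their sign and their side of the threshold, 20 lost the call, 58 gained it, none that was called reversed, and 19 that never passed changed sign. In wild-type LPS against PBS, where 6 of the 10 and 1394 of all genes passed, the fit of only the 8 libraries gave 0 and 0. All-gene counts there were 2131 by DESeq2, 4684 by limma-voom, 3271 with both doubtful libraries set aside, 3832 in female libraries and 670 with wild-type PBS replicates 2 and 3 summed; leaving out 1 library gave 538 to 3380 genes. In the knockout, LPS against PBS gave 3 genes by DESeq2 and 0 to 1 with 1 library left out. Knockout against wild type with PBS gave 6 genes, beside 19 by DESeq2, 308 by limma-voom (with 1 of the 10), 19 in female libraries, 1 with the pair summed and 1 to 9 with 1 library left out. With LPS it gave 5 of the 10 and 1935 of all genes, beside 2 and 438 from only the 8 libraries, 4073 by limma-voom, 8 and 3907 with both doubtful libraries set aside, and 4 to 8 and 858 to 4005 with 1 library left out. The interaction gave 0 of the 10 and 187 of all genes, beside 63 with RLE scaling, 39 without a filter, 42 with a CPM filter, 40 with sex as a covariate, 5 and 1300 by DESeq2, 8 and 4029 by limma-voom, 7 and 2400 with both doubtful libraries set aside, 7 and 1820 in female libraries, 0 with the pair summed, and 0 to 7 and 0 to 2655 with 1 library left out. The log2 receptor ratio differed by -0.82 to -0.53 for LPS in the knockout, and by 0.57 to 0.98 for knockout against wild type with PBS, with 1 library left out; the smallest exact permutation p was 0.0286 (0.114 after Benjamini-Hochberg adjustment over 4 comparisons), without knockout LPS replicate 1 for the first and without wild-type PBS replicate 4 for the second, so neither passed. The cause of these changes, and the effect of depth, was not tested.

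Same-numbered libraries did not deviate together throughout (correlations from -0.32 to 0.44), so the replicate numbers were not taken as pairs. With PBS, the same number was the best match between genotypes for replicates 2, 3 and 4 (0.13, 0.14 and 0.30). It was also the best match for replicate 1 in wild type (0.44). For replicate 3 it was so in the knockout (0.09) and between genotypes with LPS (0.10). In all other cases another number matched best. With the replicate number as a block, 6 of the 10 still passed in wild type, beside 1069 of all genes. Between genotypes with LPS 6 passed, Zbtb16 now among them (-0.45, adjusted p = 0.0466), beside 1619 of all genes. Over all genes the block gave 3 for knockout against wild type with PBS and 0 for the interaction.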

Other observations

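Within wild-type LPS, the 3 libraries with raised Lcn2 did not hold the glucocorticoid-induced genes at the same level. Replicate 2 was the highest library of its group for 22 of the 30 other glucocorticoid-induced genes and 5 of the 8 response genes among the 10, beside 30% of all genes, and for 2 of 5 inflammation genes. Plin4 stood at 183, 131 and 83.8 CPM, Cdkn1a at 121.4, 82.6 and 60.0 CPM and Sgk1 at 308, 193 and 156 CPM in replicates 2, 3 and 4, whereas Lcn2 stood at 238, 209 and 237 CPM. Replicate 2 also held more of the oligodendrocyte markers (8130 CPM summed, beside 4710 and 3410 in replicates 3 and 4) and of the choroid plexus markers (1240 CPM, beside 565 and 843), and their part in these differences was not tested. With 1 library at each level, the differences have no replicate check.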
